A study of Mus musculus with 2 samples.

Results

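The DNA methyltransferase genes Dnmt1, Dnmt3a, Dnmt3b and Dnmt3l and the UHRF genes Uhrf1 and Uhrf2 were chosen by name, under a rule that uses no measured value but with earlier results of these data known, and are 6 of 21486 mouse protein-coding genes with a placed transcription start site (TSS). NANOG, a homeodomain transcription factor of pluripotent cells, was mapped by ChIP-seq, in which DNA bound by an antibody's target is enriched and sequenced. The cells were E14TG2a.4, embryonic stem cells kept as a line, of male sex and strain 129/Ola, and the labels give an embryonic stage and an age of 3.5 days. The labels give 1 group of 2 biological replicates with the NANOG antibody in both, so there was no treatment, genotype or other factor to compare. Both replicates come from this single line, and peak lists hold no expression values by which its name could be checked against marker genes. The spread between them is that between samples of 1 line, which may be technical.

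DNMT1 copies CpG methylation onto the new DNA strand after replication, and UHRF1 brings it there by recognising CpG sites methylated on the parental strand only. UHRF2 is a relative of UHRF1 that does not take over this role in embryonic stem cells. DNMT3A and DNMT3B set methylation on unmethylated DNA, and DNMT3L, which has no catalytic activity, stimulates them. Mouse embryonic stem cells are known to make these proteins and to keep dividing when methylation is lost.

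NANOG summits were found in the windows of 5 of the 6 genes, and each of the 5 had 2. A summit is the position of highest signal in a peak, and it counted for a gene when it lay in the gene body or within 50 kb of the TSS, the most upstream RefSeq start. Peaks came from the authors' optimal set of 15891 peaks on genome build mm10, chosen by the reproducibility method IDR from both replicates and their pool. Of all coding genes, 48.3% had a summit in such a window and 22.7% had 2 or more. Dnmt3l had none. The 10 summits had signals from 28.2 to 232.3 with a median of 63.1, against a median of 40.2 over the optimal set, and 7 of them lay at or above that median. The signal is the authors' enrichment statistic, whose scale is not stated, so it serves only to rank peaks within a list. The window was 157.5 kb long at Dnmt3a, 113.2 kb at Uhrf2, 102.7 kb at Dnmt1 and 100 kb, the least possible, at the other 3, as for the median coding gene. Lying in a window does not show that a site acts on the gene.

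**Figure D1:**
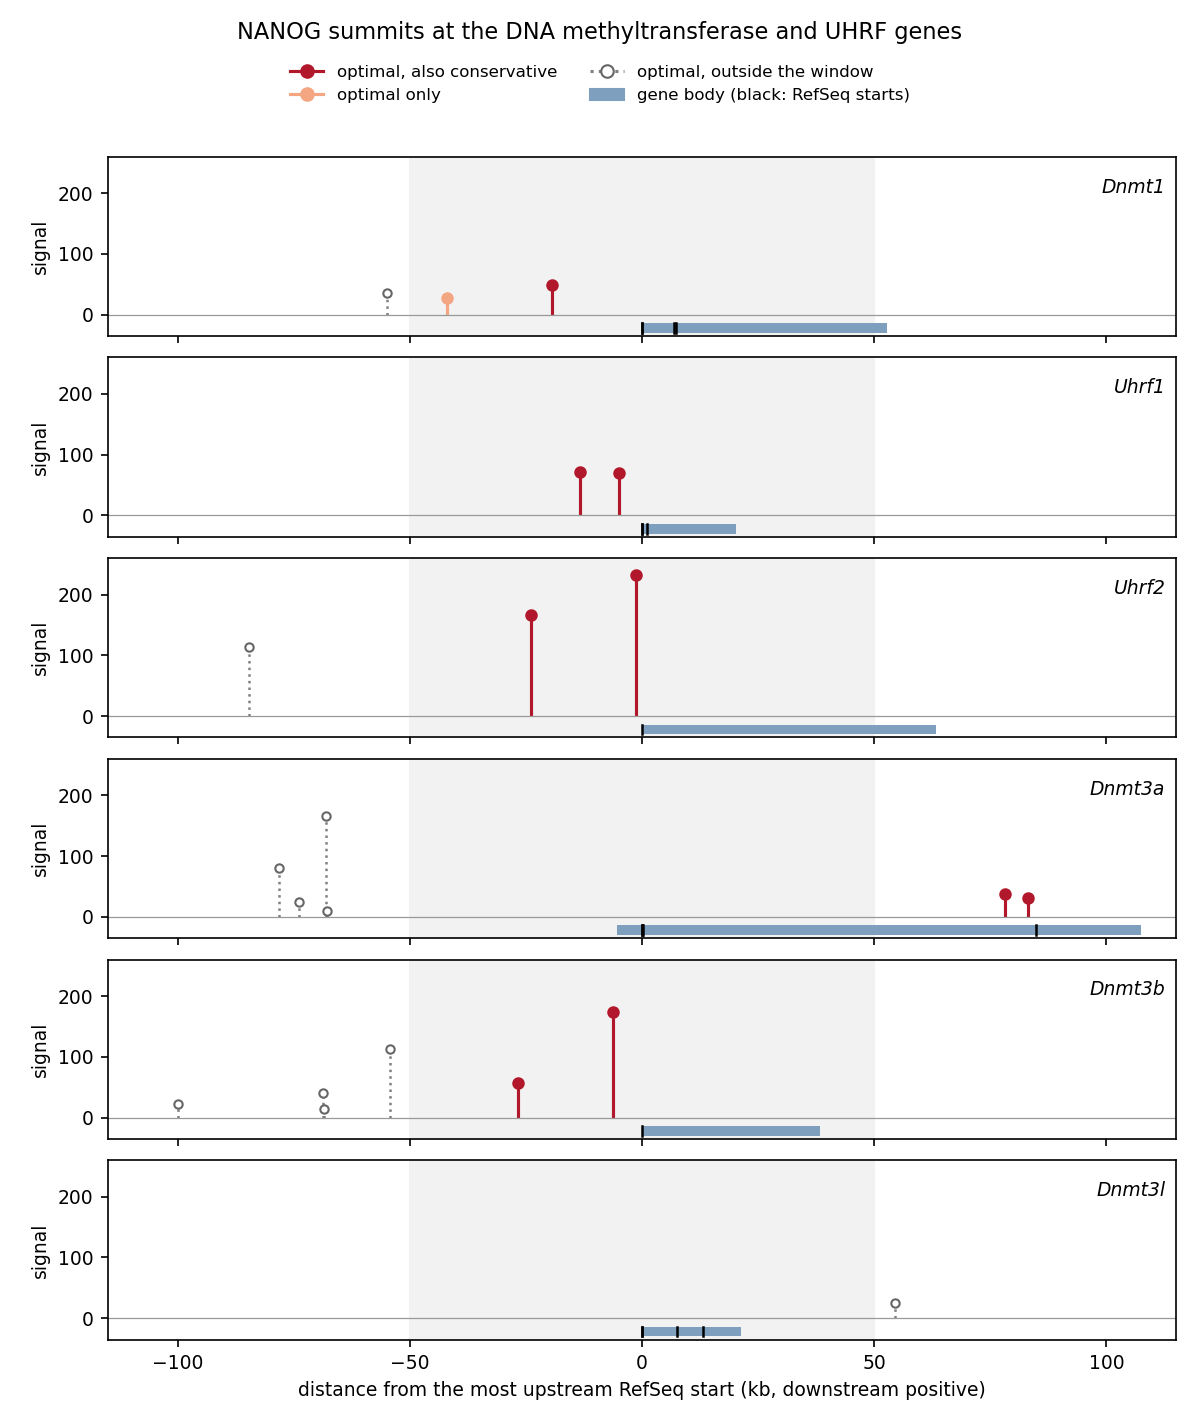
Signal of each optimal NANOG summit against its distance in kb from the most upstream RefSeq start, with 1 panel per gene, downstream to the right, the 50 kb on each side shaded and the gene body as a bar. The highest summits lie upstream of Uhrf2 (232.3) and Dnmt3b (174.1), the 2 summits of Dnmt3a lie far inside the gene, and Dnmt3l has none within its window.

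The sequences at the sites that the results turn on are shown for the strongest members and for sites that hold a match to a motif of a pluripotency factor. They are 200 bases around the midpoint of the matching mm9 peak (build mm9), series-level except the Dnmt3b site, which is from replicate 2. Near and far mean the summit nearer to or farther from the TSS, or for Dnmt3a from its most downstream RefSeq start. The midpoints lay 4 bp (Uhrf2 near), 26 bp (Uhrf2 far), 32 bp (Dnmt3b), 41 bp (Dnmt3a) and 45 bp (Dnmt1 far) from the place of the mm10 summit, but 340 bp at the near Dnmt1 site, whose summit is therefore outside the sequence shown. Capitals mark matches to the 8 motifs searched, on either strand: ATGCAAAT (octamer, bound by OCT4), CATTGT, any 1 base and then ATGCAAAT with up to 2 mismatches in all (joint SOX2 and OCT4 site), CATTGT and CTTTGT (SOX), TCAAGGTCA with up to 1 mismatch (ESRRB), GGGNGTG (KLF), TTCCNGGAA (STAT3) and TAATGG (homeodomain). In the far Uhrf2 site the octamer lies inside the joint site, so the long capital run is both.
Uhrf2, near summit (chr19:30103572-30103771, plus strand): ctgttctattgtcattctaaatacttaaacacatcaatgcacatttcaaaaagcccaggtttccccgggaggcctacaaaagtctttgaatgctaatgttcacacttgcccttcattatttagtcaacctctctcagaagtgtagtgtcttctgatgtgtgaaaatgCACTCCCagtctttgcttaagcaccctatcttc
Uhrf2, far summit (chr19:30080967-30081166, plus strand): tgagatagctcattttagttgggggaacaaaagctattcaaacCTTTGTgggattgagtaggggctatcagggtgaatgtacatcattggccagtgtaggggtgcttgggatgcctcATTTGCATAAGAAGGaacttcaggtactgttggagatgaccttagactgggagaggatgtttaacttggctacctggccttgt
Dnmt3b, near summit (chr2:153468815-153469014, plus strand): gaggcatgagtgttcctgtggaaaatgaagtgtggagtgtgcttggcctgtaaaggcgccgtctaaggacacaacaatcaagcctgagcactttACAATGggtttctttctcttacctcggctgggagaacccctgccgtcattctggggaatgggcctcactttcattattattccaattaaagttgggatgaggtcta
Dnmt3a, near summit (chr12:3889943-3890142, plus strand): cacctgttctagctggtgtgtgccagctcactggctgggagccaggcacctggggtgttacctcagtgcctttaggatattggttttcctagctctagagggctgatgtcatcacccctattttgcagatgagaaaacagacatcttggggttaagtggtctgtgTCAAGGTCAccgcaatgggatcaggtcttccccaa
Dnmt1, near summit (chr9:20783320-20783519, plus strand): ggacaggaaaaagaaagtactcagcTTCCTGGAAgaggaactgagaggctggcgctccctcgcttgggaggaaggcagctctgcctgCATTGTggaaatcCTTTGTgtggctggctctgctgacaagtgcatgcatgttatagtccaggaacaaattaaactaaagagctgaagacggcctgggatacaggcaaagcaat
Dnmt1, far summit (chr9:20806185-20806384, plus strand): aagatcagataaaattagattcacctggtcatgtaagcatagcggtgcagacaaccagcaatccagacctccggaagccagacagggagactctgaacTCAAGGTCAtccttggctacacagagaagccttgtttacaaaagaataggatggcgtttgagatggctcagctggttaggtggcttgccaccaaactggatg

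Dnmt1, the maintenance methyltransferase gene (mm10 chromosome 9, 20907206 to 20959888, minus strand), had both of its summits upstream and closer to other genes. The nearer one (20979134 to 20979497) lay 19.4 kb upstream outside any coding gene, and the closest TSS was that of S1pr2, a receptor for sphingosine 1-phosphate, 2.52 kb away. Its optimal signal was 48.8, rank 6256 of 15891. In the relaxed lists of 300000 regions per replicate it had signal 37.8 and rank 6278 in replicate 1 and signal 12.8 and rank 5848 in replicate 2, so its place in the order was similar in both. The farther one (21001614 to 21001977) lay 41.9 kb upstream, inside Mrpl4, a mitochondrial ribosomal protein gene, and 0.544 kb from the Mrpl4 TSS. It had optimal signal 28.2, rank 11558. Replicate 1 had it at signal 21.2 and rank 12563, and replicate 2 had no region there among its 300000, where 84.9% of all optimal peaks overlap some region of that list. It was the lowest of the 10 summits and the one that the conservative set did not hold. RefSeq gives Dnmt1 further starts 6.91 and 7.26 kb inside the gene, and no optimal summit lay in the gene body.

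Uhrf1, whose protein recognises newly replicated CpG sites (chromosome 17, 56303337 to 56323486, plus strand), had 2 summits of nearly equal signal in the genes just upstream. The first (56298263 to 56298626) lay 4.89 kb upstream, inside Arrdc5 and 1.84 kb from the Arrdc5 TSS, with signal 70.1 and rank 3839. The other (56289754 to 56290117) lay 13.4 kb upstream, inside Plin3, a lipid droplet protein gene, and 0.575 kb from its TSS, with signal 70.8 and rank 3786. Both signals lay just above the upper quartile of the optimal set, 68.5. Replicate 1 gave the site at 4.89 kb signal 47.4 and rank 4711, and replicate 2 gave it signal 24.9 and rank 2172. The site at 13.4 kb had signal 53.8 and rank 3907 in replicate 1 and signal 13.5 and rank 5333 in replicate 2. The replicates therefore order these 2 sites differently, with the farther one higher in replicate 1 and the nearer one higher in replicate 2. The Uhrf1 window holds 5 other coding TSSs, those of Fem1a, Ticam1, Plin3, Arrdc5 and Kdm4b, the most for any of the 6 genes.

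Uhrf2, the UHRF1 relative (chromosome 19, 30030430 to 30093726, plus strand), had the strongest NANOG site of the 6 genes and the one closest to a RefSeq start of its own gene. That summit (30028991 to 30029329) lay 1.335 kb upstream of its only RefSeq start and outside any coding gene. Its signal was 232.3, rank 393 of 15891, which puts it in the top 2.47% of the optimal set. It ranked 375 in replicate 1 with signal 173.7 and 468 in replicate 2 with signal 58.9. The second summit (30006425 to 30006667) lay 24.0 kb upstream, also outside coding genes, and 2.76 kb from the TSS of Trpd52l3. Its signal was 167.2, rank 842, and it ranked 1091 in replicate 1 (signal 112.8) and 552 in replicate 2 (signal 54.0). Both Uhrf2 sites were thus among the highest of either replicate.

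Dnmt3a, a de novo methyltransferase gene (chromosome 12, 3801559 to 3914443, plus strand), was the only one of the 6 with summits inside its own body. RefSeq gives it 2 starts close together and another 84.8 kb further on. That one, the third start, begins the short isoform known as the main form in mouse embryonic stem cells. The summits lay 78.1 kb (3884895 to 3885258) and 83.1 kb (3889902 to 3890265) downstream of the first start, which is 6.67 and 1.66 kb upstream of the third. Their signals were 36.8 (rank 8798) and 30.2 (rank 10818), both below the median of the optimal set. At the farther of these from the third start, replicate 1 had signal 23.9 and rank 10911 and replicate 2 had signal 18.1 and rank 3478. At the nearer one, replicate 1 had signal 27.6 and rank 9251 and replicate 2 had signal 13.1 and rank 5658, with the replicate 2 summit 297 bp away from the optimal one. Replicate 1 and replicate 2 again placed the pair in opposite order. No other coding TSS lay in the window. The mm9 annotation has a further protein-coding Dnmt3a transcript, which started 0.316 kb from the series-level mm9 midpoint of the site at 78.1 kb. When each gene had a single start, the nearest was that of Pomc, 69.9 and 64.9 kb away, and with all RefSeq starts it was the third start of Dnmt3a.

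Dnmt3b, the other de novo methyltransferase gene (chromosome 2, 153649411 to 153687730, plus strand), had a strong upstream site. The summit (153643021 to 153643291) lay 6.30 kb upstream outside any coding gene, and the Dnmt3b TSS was the closest. Its signal was 174.1, rank 765, with rank 874 in replicate 1 (signal 124.4) and 611 in replicate 2 (signal 51.7). The second summit (153622458 to 153622821) lay 26.8 kb upstream, inside Commd7 and 10.1 kb from its TSS, with signal 56.2 and rank 5231. It ranked 7589 in replicate 1 (signal 32.6) and 2355 in replicate 2 (signal 23.6). The Dnmt3b site at 6.30 kb was therefore high in both replicates, and the one at 26.8 kb was placed higher by replicate 2.

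Dnmt3l, the gene of the catalytically inactive cofactor (chromosome 10, 78042287 to 78063622, plus strand), had no optimal or conservative summit in its window. The best region in the window ranked 41165 of 300000 in replicate 1 (signal 9.72, 6.08 kb downstream of the TSS), 20081 in replicate 2 (signal 8.60, 10.8 kb downstream) and 25280 in the pool (signal 16.2, 10.7 kb downstream). None of them reached the 15891 highest regions of its list. RefSeq gives Dnmt3l further starts 7.555 and 13.048 kb inside the gene. The replicate 1 region lay upstream of both, and the other regions lay between them. The nearest optimal peak lay 54.6 kb downstream of the TSS (78096697 to 78097060), with signal 25.8 and rank 12481. It was neither in the conservative set nor among the top regions of both replicates, and the TSS closest to it was that of Icosl, 27.5 kb away. The mm9 list of replicate 1 held 1 peak inside Dnmt3l, 6.11 kb downstream of the TSS, with an enrichment of 5.20 and a q-value of 0.566, rank 20723 of 22082. Without read depth, weak binding at Dnmt3l and none cannot be told apart.

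Nearly all of the summits at these genes were present in both replicates. The 15891 highest regions of each relaxed list, as many as the optimal set, were taken as its top regions, and an overlap of at least 1 bp counted. Of the 10 summits, 10 lay in a top region of replicate 1, against 86.3% of all optimal peaks, and 9 in one of replicate 2, against 54.6%. Both replicates held 9, against 50.4%, and the conservative set held 9, against 56.7%. The optimal and conservative sets were made from these lists, so the counts describe these sites and no test was made of them. In the plot of ranks by replicate, the 3 sites in the highest 10% of the optimal set, both at Uhrf2 and the nearer one at Dnmt3b, lie far left of the rest in both replicates.

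**Figure D2:**
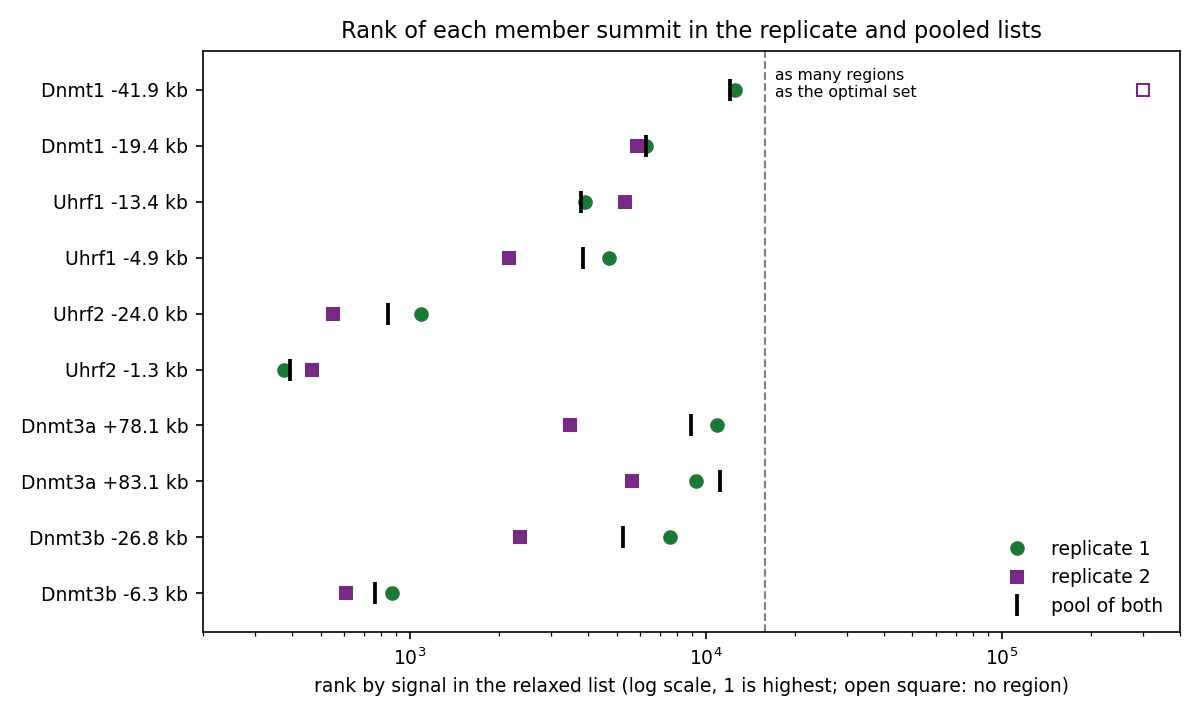
Rank by signal of each of the 10 summits in the relaxed list of replicate 1 (circles), replicate 2 (squares) and the pool of both (bars), on a log axis where 1 is the highest, with a dashed line at 15891. The Uhrf2 sites and the Dnmt3b site at 6.30 kb lie leftmost, between ranks 375 and 1091, and the Dnmt1 site at 41.9 kb has no region in replicate 2 (open square).

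The mm9 peak lists, a separate set of calls, had peaks at the same places for most of the 10 summits. Each mm9 peak's midpoint was placed relative to the same RefSeq start, found in the mm9 genome by its sequence, and a midpoint within 500 bp of the mm10 distance counted as a match. The same rule was applied to the 8956 optimal peaks in the window of any coding gene whose start could be placed in mm9. The series-level list matched 9 of the 10 summits, against 71.9% of those peaks, and the list of replicate 1 matched 10, against 90.5%. The shorter list of replicate 2 matched 8, against 40.3%. Of all coding genes on mm9, 45.2% had a series-level midpoint in their window, as did 5 of these 6. At the Uhrf2 site 1.335 kb upstream the enrichment was 25.4 at series level, 50.8 in replicate 1 and 20.5 in replicate 2, and at its other site it was 18.1, 36.4 and 19.6. The list medians are 7.38, 9.76 and 8.60, so both Uhrf2 sites stood above them in every list. The Uhrf1 sites had series-level enrichments of 10.1 (4.89 kb) and 8.89 (13.4 kb).

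The sites at Dnmt1 and Dnmt3a and the farther one at Dnmt3b had lower series-level enrichments, between 4.36 and 8.56. At Dnmt3a the site closer to the third start had 8.56 at series level (q-value 0.0008) and the other had 4.53 (0.0208). The q-values of that second Dnmt3a site were 0.234 in replicate 1 and 0.1735 in replicate 2, the highest among the matched sites in either list. Dnmt1 had 7.11 and 4.36 at its nearer and farther sites and no match in replicate 2. The Dnmt3b site at 26.8 kb had 5.37, and its mm9 midpoint lay in an annotated exon of Commd7. By the mm9 annotation, no midpoint at another of these sites was in an exon of a coding gene. That annotation had no coding gene at the farther Dnmt1 site, which RefSeq on mm10 placed inside Mrpl4. Whether that site lies in an exon is therefore not settled. At the strong Dnmt3b site, the series-level peak was 2176 bp wide, with enrichment 21.6, and covered the summit, but its midpoint was too far away to match. Replicate 2 divided that region into a peak of enrichment 19.1 at 6.27 kb and one of 7.84 at 7.56 kb upstream.

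**Figure D3:**
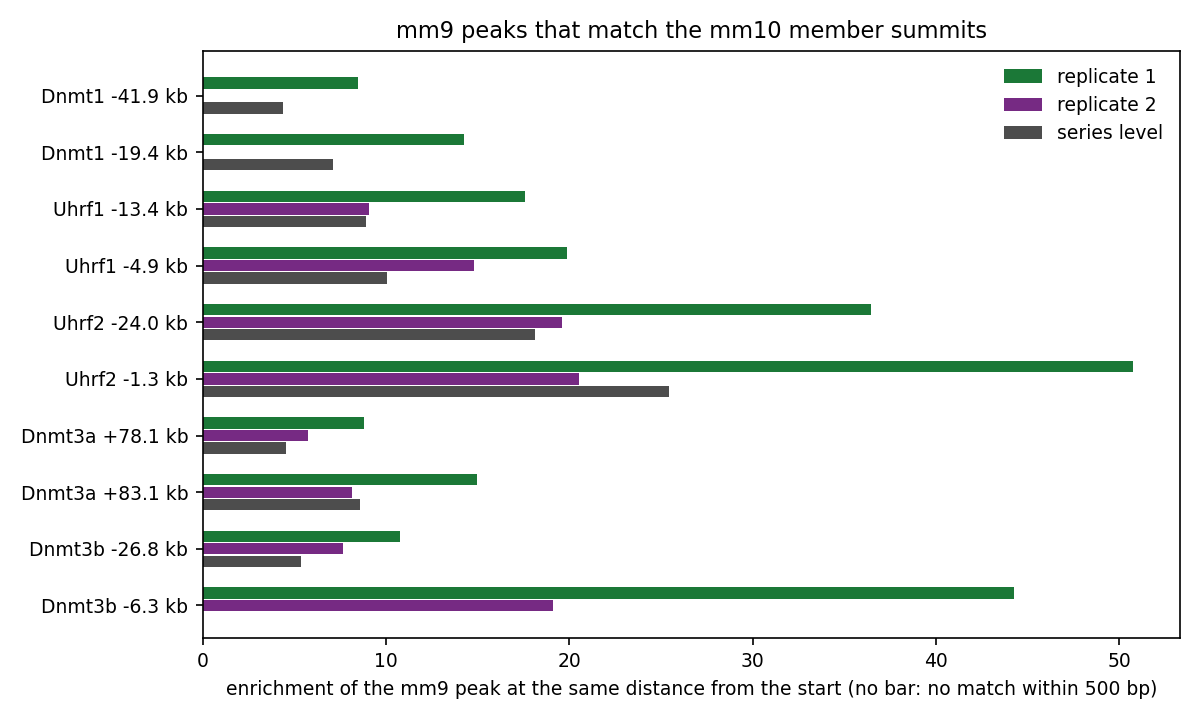
Enrichment of the mm9 peak that matches each of the 10 mm10 summits, for replicate 1, replicate 2 and the series-level list, with no bar where no midpoint lay within 500 bp. The longest bars are those of the Uhrf2 sites and of the Dnmt3b site at 6.30 kb, and both Dnmt1 sites lack a replicate 2 bar.

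Most of these sites lay away from the start of the gene they were counted for. Of the 10 summits, 8 lay upstream of the TSS and 2 inside the gene, both at Dnmt3a. None lay within 1 kb of any RefSeq start of its own gene, and 5 lay within 10 kb of one. Of these 5, Dnmt3a had 2 and Uhrf1, Uhrf2 and Dnmt3b 1 each. RefSeq does not hold every annotated start. In the mm9 annotation a protein-coding Dnmt3a transcript started 0.316 kb from the series-level midpoint of the site at 78.1 kb. The same shares were not taken over the summits of other genes, so these counts only describe the 6 genes. Measured to the closest TSS of any coding gene, 2 of the 10 lay within 1 kb, beside Mrpl4 and Plin3, against 3.3% of all optimal peaks. Within 10 kb of such a TSS lay 7, against 20.4% of all optimal peaks. These 10 summits were taken from gene windows, while all optimal peaks include those outside any window. Nearness to a TSS is therefore partly set by the rule, and the shares were not taken over window peaks alone. With 1 start per gene, the gene was also the owner of the closest TSS for 2 summits, 1 at Uhrf2 and 1 at Dnmt3b. Counted by gene, 2 of the 6 thus had a summit of that kind, against 28% of coding genes. With all RefSeq starts 3 of the 6 genes had one, Dnmt3a being added, against 28.1% of coding genes. The other upstream sites at Dnmt1, Uhrf1, Uhrf2 and Dnmt3b were closer to S1pr2, Mrpl4, Plin3, Arrdc5, Trpd52l3 or Commd7.

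The count of genes with a summit changed with the window. Within the gene body and 10 kb of the TSS, 4 of the 6 genes had one (all but Dnmt1 and Dnmt3l), against 25.2% of coding genes. Within 50 kb without the gene body 4 did (all but Dnmt3a and Dnmt3l), against 44.8%, and in the gene body and 100 kb all 6 did, against 67.1%. With the conservative set 5 had one, against 33.7%, and among optimal peaks at or above the median signal 4 did, against 30.7%. Top regions of replicate 1 alone gave 5, against 48.5%, and those of replicate 2 alone gave 5, against 54%. Dnmt3l was without a summit in each of these counts other than that at 100 kb.

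Peaks just beyond 50 kb show what the window leaves out. Of the summits counted by distance, the outermost was that of Dnmt1 at 41.9 kb, and the first ones outside lay 54.3 kb upstream of Dnmt3b (signal 112.8, rank 1842), 54.6 kb downstream of Dnmt3l and 55.0 kb upstream of Dnmt1 (signal 36.3, beside Icam1). Between 67.8 and 78.1 kb upstream of Dnmt3a there were 4 optimal peaks, of which 2 start at the same base, and the Dnmt3a TSS was the closest coding TSS to all of them. The highest of these (3738812 to 3739151) had signal 166.4, rank 852, and was in the conservative set and in top regions of both replicates. The 2 summits inside Dnmt3a, at 36.8 and 30.2, had lower signals than this upstream peak. Uhrf2 had a further peak 84.7 kb upstream (signal 113.0), 20.7 kb from the TSS of Il33, and the nearest peak outside the Uhrf1 window was 166.4 kb away.

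Motif content was described for the 12 series-level mm9 windows at these genes beside all 13341 windows of the same 200 bp length. A match to at least 1 motif was present in 9 of the 12, against 74.7% of all windows, and in windows of 300 bp in 10, against 84.3%. The SOX letters CTTTGT were in 5, against 37.1%, and CATTGT in 3, against 25.8%. The windows 23.5 kb upstream of Dnmt1 and 41.4 kb upstream of Uhrf2 have no optimal summit. Both held CTTTGT, and the Uhrf2 one also held CATTGT. At the strong Dnmt3b site the window lies at the midpoint of the wide peak. The CATTGT shown for that site from replicate 2 is therefore not counted. The ESRRB site with up to 1 mismatch was in 3, against 17.3%, and its exact letters were in 2, at the near Dnmt3a site and the far Dnmt1 site, against 3.04%. The exact form was counted after the values were seen. The octamer and the joint site were in 1 window, the far Uhrf2 site, against 4.16% and 2.89%. The octamer there was exact, and the joint match had 2 mismatches, both in its CATTGT part. The KLF letters were in 1, the near Uhrf2 site, against 16%, and the STAT3 letters in 1, the near Dnmt1 site, against 0.989%. None held TAATGG, against 11.7%. The windows at the Uhrf1 site at 4.89 kb, at the Dnmt3a site at 78.1 kb and at the midpoint of the wide Dnmt3b peak held none of the 8. GC content over the 12 windows ran from 35.5% at Uhrf1 to 56% at Dnmt3b with a median of 48%, against a median of 45.5% over all windows. They held a median of 1.5 CpG sites, against 2. A match or its absence says nothing here about which factor was bound.

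Other genes of DNA methylation were described by lists chosen with earlier results of these data known. Of the 23 listed genes, 19 had an optimal summit in their window (82.6%), against 48.3% of all coding genes. Among cofactors of maintenance, 6 of 8 had one. The highest signals were at Usp7, a deubiquitinase that binds DNMT1 and UHRF1 (135.5), Dppa3, whose protein restrains UHRF1 (122.8), and Pcna, the replication clamp (72.6). The Usp7 peak lay 40.5 kb upstream outside any coding gene, with the Usp7 TSS the closest. The Dppa3 peak lay 35.1 kb upstream inside Apobec1, and the Pcna peak 30.3 kb upstream inside Cds2. Each of these 2 was closer to the TSS of the gene it lay in. The DNA ligase gene Lig1 and the acetyltransferase gene Kat5 had none. All 8 genes on the list of de novo and heterochromatin cofactors had one. The highest signals were at the histone methyltransferase gene Ehmt1 (184.8, inside the gene), the corepressor gene Trim28 (138.8) and the histone methyltransferase gene Nsd1 (117.0, inside the gene). The Trim28 peak lay 9.53 kb upstream and was closer to the TSS of Zbtb45. That list also counts Trdmt1, a tRNA methyltransferase gene, whose peak lay 27.7 kb upstream and 1.94 kb from the TSS of Vim. Of 4 genes for the oxidation or removal of methylated bases, 3 had one, and the glycosylase gene Tdg had none. The highest peaks of Tet2 (322.6) and Tet3 (279.0) lay inside the gene and that of Tet1 (147.3) 5.74 kb upstream. Of 3 genes of methyl donor supply, Ahcy (166.3) and Mat2b (155.4) had one, and Mat2a had none. The Ahcy peak lay 5.51 kb upstream, and the Mat2b peak 44.9 kb upstream inside Nudcd2. Set among these listed genes, the highest signals at Uhrf2 and Dnmt3b exceed those of the maintenance cofactors. Those at Dnmt1 (48.8) and Dnmt3a (36.8) lie near the median of the optimal set.

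**Figure D4:**
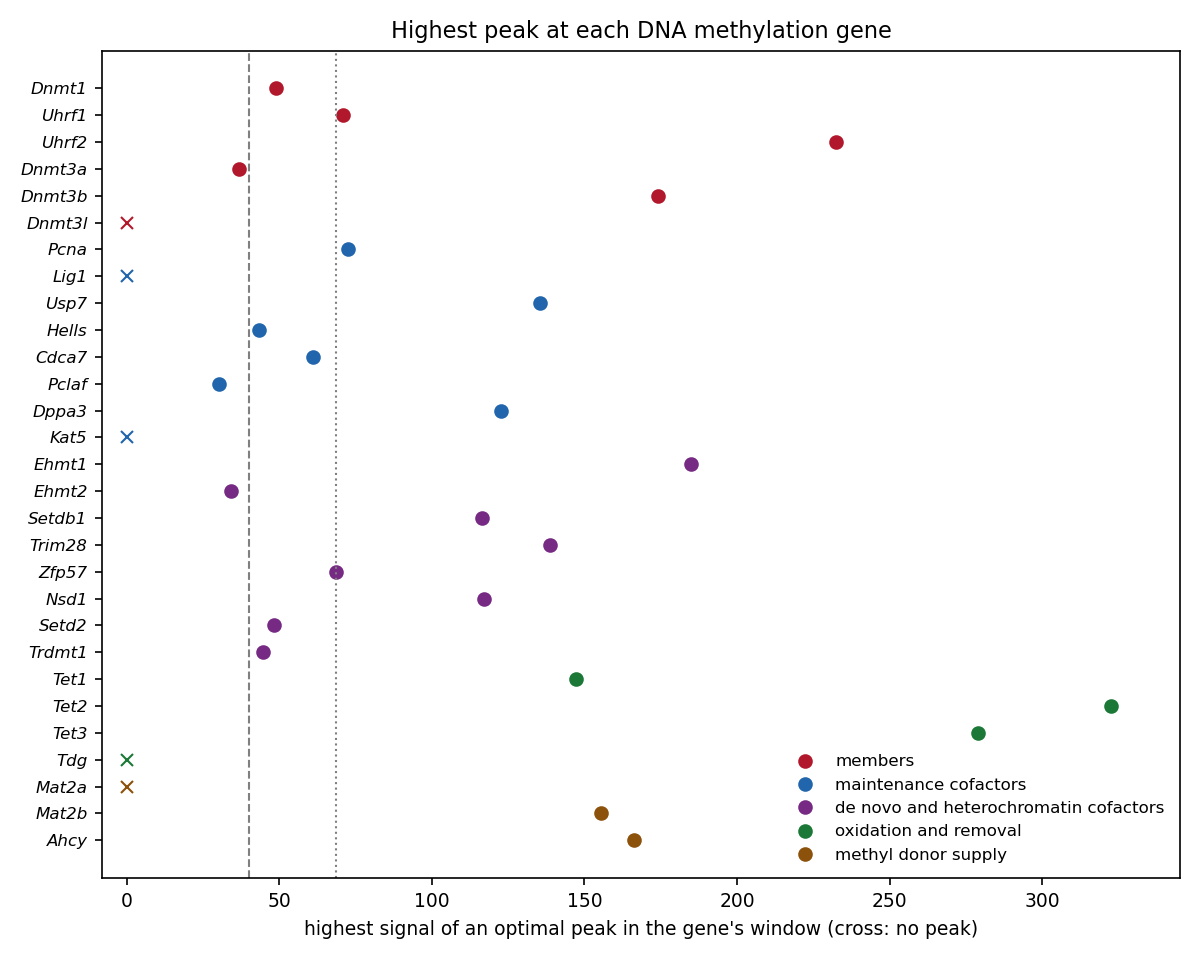
Highest optimal signal in the window of each of the 6 genes and of the 23 other listed genes, coloured by list. Dashed and dotted lines mark the median (40.2) and upper quartile (68.5) of the optimal set, and a cross marks no summit. Tet2 and Tet3 stand highest, Uhrf2 follows at 232.3, and Dnmt3l is among the 5 genes with none.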

How the data were processed

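NANOG ChIP-seq peak lists of 2 biological replicates were used, 2 mm10 sets (optimal, 15891 peaks, and conservative, 9431), 3 relaxed mm10 lists of 300000 regions (each replicate and the pool) and 3 mm9 lists (13341 series-level, 22082 and 6618 peaks). The authors' deposited mm10 values are a signal of unstated scale and the -log10 of the q-value per peak. On mm9 the deposited columns hold an enrichment ratio over an unstated reference, -log10 p-values and q-values, the last read as untransformed. Units follow the field order of the peak types named per the labels' files. Aligner, peak caller and IDR threshold are not given in the sources used here. Control data were not used here, and read depth is unknown.

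The 6 genes and the other gene lists were chosen with earlier results of these data known. TSSs were RefSeq starts on GRCm38.p6 for 17492 genes and gene 5' ends for 3994, of 21900 coding genes in the table. RefSeq promoter sequences (250 bases before to 50 after a start) placed the same starts in the mm9 genome, for 15975 coding genes in all, and no coordinates were converted. mm10 sequence was not used here. Coordinates are 1-based. Peaks were ranked by signal. With 1 group and genes chosen with results known, no test was run, so counts stand beside the share over all genes or peaks. Named genes were the 6 members, genes nearest to or holding their summits or the first peaks outside, and genes with a TSS in the Uhrf1 window. From the lists they were the 3 highest of each, genes nearest to or holding those peaks, members without a summit, and Trdmt1 with Vim. Other list genes stand in the counts and a figure, and 1 more gene was dropped from the lists and is not reported here. Scripts used Python 3.11.15, NumPy 2.4.6, pandas 2.3.3 and matplotlib 3.10.9 and were tested on simulated peaks. Alternatives changed the window, peak set, replicate, start, overlap, build, motif width and ranking value.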

Additional observations from a re-analysis of the deposited data

How the results depend on the processing

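Of the 6 genes, 5 had a summit with the conservative set, without either replicate (5 to 5), with mm9 peaks and with the gene 5' end as TSS, 4 did within 10 kb, within 50 kb without the gene body and among peaks at or above the median signal, and all 6 did within 100 kb. Counting only summits whose nearest TSS was the gene's gave 2 genes and 2 summits. With all RefSeq starts, an alternative chosen after seeing the data like the gene 5' end, it gave 3 genes and 4 summits, which the construction accounts for since the third Dnmt3a start is then included. The count of 10 summits was 5 within 10 kb and 21 within 100 kb, and leaving out a replicate gave 10 to 14. It was 11 with the conservative set, where Dnmt3b had 4, and 12 with the series-level mm9 list. Without replicate 1, Dnmt3a and Dnmt3b had 4 each, Uhrf1 3, Uhrf2 2 and Dnmt1 1. Among the 10 optimal summits, 8 to 9 were of both replicates and 9 overlapped the conservative set. Their mm9 matches numbered 8 to 10, also without either replicate. Of the 23 other listed genes, 14 had a summit in the gene body or within 10 kb, against 25.2% of coding genes. With the conservative set 19 did, against 33.7%. Motif matches numbered 10 in wider windows, and the highest site was the same by q-value in 4 of 5 genes.

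No paired analysis was possible because the labels give 1 group. The optimal and conservative sets combine both replicates and carry no replicate error, and read depth is unknown, so that depth and binding cannot be told apart behind a low rank in 1 replicate. A window assigns a summit by position alone. Sequences and motifs come from mm9 midpoints, not from mm10 summits.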

Other observations

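Some regions at these genes lay in other lists but not in the optimal set. The conservative set held a region 7.60 kb upstream of Dnmt3b (chromosome 2, 153641669 to 153642032, signal 27.7) that no optimal peak overlapped. It ranked 12286 in the pool, 16507 in replicate 1 and 8291 in replicate 2, and the mm9 list of replicate 2 had its peak of enrichment 7.84 there. Top regions of replicate 2 also lay 4.18 kb downstream of the first Dnmt3a start (signal 11.5, rank 7271) and 17.2 kb upstream of Uhrf1 (signal 9.995, rank 10859). Replicate 1 had no region at either among its 300000, and they ranked 129134 and 55531 in the pool.

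An mm9 peak 41.4 kb upstream of Uhrf2 had an enrichment of 7.22 at series level, where the list median is 7.38, and 12.4 in replicate 1, where it is 9.76, and there was none in replicate 2. The nearest relaxed mm10 region lay 8.29 kb from its place in the pool, 4.31 kb in replicate 1 and 8.93 kb in replicate 2. This site was therefore present on mm9 and had no region at the same distance from the Uhrf2 start among the 300000 of any mm10 list. Its place on mm10 was taken from that distance alone, as no coordinates were converted. The cause was not tested. Another mm9 peak, 23.5 kb upstream of Dnmt1 (enrichment 4.53 at series level), coincided with a pooled mm10 region of rank 15183 that ranked 23946 in replicate 1 and 67613 in replicate 2.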
